A study of Mus musculus with 2 samples.

Results

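The nuclear genes of the respiratory chain and ATP synthase were examined complex by complex in the embryonic mouse heart. Members were all genes of the count table whose symbol matched the names of the NADH dehydrogenase (Nduf), succinate dehydrogenase (Sdh), cytochrome bc1 (Uqcr, Cyc1), cytochrome c (Cycs), cytochrome c oxidase (Cox4 to Cox8) and ATP synthase (Atp5) families and that did not lie on the mitochondrial chromosome. This rule used names and gave 86 of 29383 genes. Of these, 80 encode subunits or cytochrome c and 6 share only the name pattern.

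The RNA came from heart apexes of E12.5 embryos, and 8 hearts were pooled per genotype before sequencing. The KO library came from Nkx2-5cre, Ezh2 f/f embryos, in which both Ezh2 copies are floxed, and the Het library from Nkx2-5cre, Ezh2 f/+ embryos, which carry the same Cre driver and 1 floxed copy. The driver limits recombination to lineages that have expressed Nkx2-5, a cardiac transcription factor, and the Het control can itself lose 1 copy. Ezh2 encodes the methyltransferase of Polycomb repressive complex 2, so the libraries contrast hearts able to lose both copies with hearts able to lose 1. The labels call the cells cardiomyocytes and name no sort.

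With 1 library per genotype no difference has a replicate check and no p-value was computed. Ratios are KO over Het after scaling by the trimmed mean of M values (TMM), log2 ratios are log2((KO CPM + 1)/(Het CPM + 1)), where CPM are scaled counts per 1000000 reads, and intervals are at 95% and cover counting error only. Without molecular identifiers, reads are not independent molecules, and pooling hides the spread between animals. The libraries held 14122579 reads in KO and 13944617 in Het. Ezh2 had 319 reads in KO and 493 in Het, a ratio of 0.601 (0.521 to 0.694), counted inside and outside the floxed exons. Cardiomyocyte markers took 4.80% of reads in KO and 4.61% in Het, and the lowest of the 9, Nkx2-5, had 100.4 CPM in KO and 88.0 CPM in Het. Their summed ratio was 0.980 (0.976 to 0.983), with 5 above and 4 below 0 on the log2 scale. Erythroid markers, 5 of 6 tested below 0, took 0.446% of reads in KO and 0.601% in Het, endothelial and endocardial markers 0.0934% and 0.0916%, mesenchymal and smooth muscle markers 0.225% and 0.230%, epicardial markers 0.0209% and 0.0190%, and leukocyte markers 0.00329% and 0.00376%. These shares are before TMM scaling. After it the summed ratios were 0.699 (0.691 to 0.706) for erythroid and 0.960 (0.936 to 0.983) for endothelial and endocardial markers. They were 0.922 (0.908 to 0.937) for mesenchymal and smooth muscle, 1.04 (0.983 to 1.09) for epicardial and 0.823 (0.725 to 0.934) for leukocyte markers. Of the 6 leukocyte markers tested, 3 were above and 3 below 0 on the log2 scale. Cd68 had 69 reads in KO and 40 in Het, and Lyzs had 109 and 183. S100a9 and S100a8, the latter not tested, had 0 reads in KO, against 14 and 2 in Het. The part of the erythroid difference in the results below was not tested. In tissue RNA, fewer cells of a type and less RNA per cell cannot be told apart.

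Oxidative phosphorylation passes electrons from NADH through complex I, or from succinate through complex II, by way of ubiquinone to complex III, then by cytochrome c to complex IV, where oxygen is reduced. Proton pumping by complexes I, III and IV drives ATP synthase, complex V. Except for complex II, each of these complexes joins nuclear and mitochondrially encoded subunits, and striated muscle replaces some complex IV subunits with muscle isoforms as it matures.

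Most nuclear respiratory chain transcripts had a log2 ratio below 0, by small amounts. Of the 84 members with at least 1 CPM in either library, 68 had a log2 ratio below 0 and 16 above, with a median of -0.20. Over all 16185 genes tested, 51.2% were below 0 and the median was -0.01. A gene was counted as lower or higher in KO when its log2 ratio reached -0.32 or 0.32, which is a 25% excess of one library over the other. By this threshold 17 members were lower and 2 higher, while 10.7% of all genes tested were lower and 12.4% higher. A fold of 1.5 was reached by 1 member lower in KO, Cox8b, and 1 higher, Cox6b2, against 1.88% of all genes lower and 3.45% higher. At a fold of 2, 0 members were apart in either direction, against 0.173% of all genes lower and 0.605% higher. Under total-count scaling 10 members were lower and 6 higher, and the shares of all genes under that scaling were not computed. Counting intervals excluded a ratio of 1 for 70 members, with 59 ratios below 1 and 11 above. Together the members took 2.87% of reads in KO and 3.05% in Het, a scaled ratio of 0.886 (0.882 to 0.890). Among 2396 genes of like level, between 71.8 and 647.5 CPM on average, 58.1% were below 0, 8.43% were past the 25% threshold as lower and 3.8% as higher, with a median of -0.04.

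**Figure D1:**
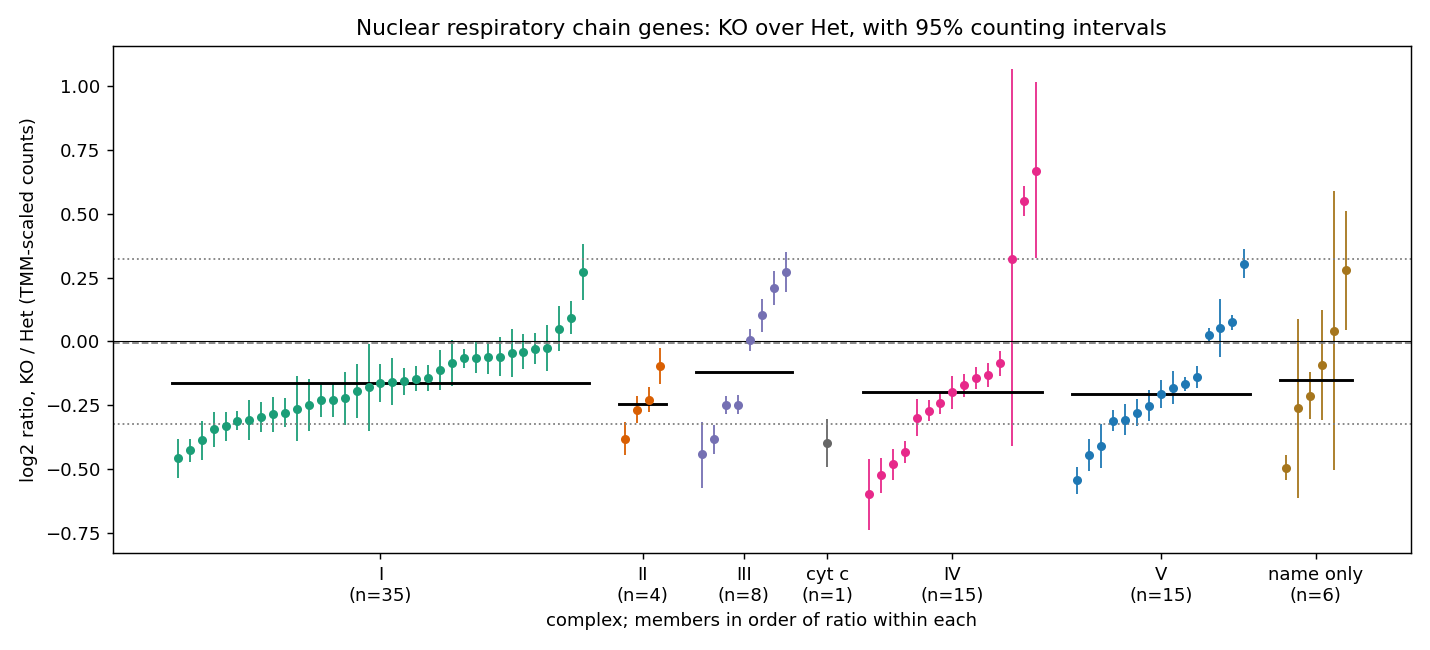
Log2 ratio of KO over Het (vertical axis, TMM-scaled counts) for the 84 members tested, in order of ratio within each complex, with bars for the 95% counting interval, black lines for complex medians, dotted lines at the 25% threshold and a dashed line at the median of all genes. Most points of complexes I, II, IV and V lie below 0, complex III is split, and Cox5a, Cox6b2 and Atp5d stand at the upper ends.

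Complex I held 35 of the members, and 32 of them were below 0 in KO, with a median of -0.16. Its transcripts summed to 128719 reads in KO and 136261 in Het, a scaled ratio of 0.878 (0.871 to 0.885). The 7 genes of the N module, where NADH is oxidised, had a median of -0.23. The 8 genes of the Q module, which hands electrons to ubiquinone, were all below 0 under TMM scaling with a median of -0.16, and the 20 accessory genes of the membrane arm had a median of -0.17. Past the threshold, 5 genes were lower, or 14.3% of the complex against 10.7% of all genes tested, and 0 higher, and the other 30 lay between log2 ratios of -0.31 and 0.27. Under total-count scaling 2 genes of complex I were lower and 1 higher. With the trend on GC content and transcript length removed, 0 were lower and 1 higher.

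The lowest gene of complex I was Ndufs4 (chromosome 13, 115078858 to 115178251, in the coordinates of the files), an accessory subunit of the N module needed for a stable complex. Ndufs4 had 2585 reads in KO and 3301 in Het, a ratio of 0.728 (0.691 to 0.766). Ndufv2, an iron-sulfur subunit of the same module, had 7177 reads in KO and 8961 in Het, a ratio of 0.744 (0.721 to 0.768). The membrane-arm gene Ndufb5 had 2524 reads in KO and 3068 in Het, a ratio of 0.764 (0.725 to 0.806). Also past the threshold were the X-linked membrane-arm gene Ndufb11, at 0.787 (0.752 to 0.825), and the Q-module gene Ndufa5, at 0.794 (0.764 to 0.826), both named after their values were seen.

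Ndufv1 and Ndufs1, which like Ndufv2 are core subunits of complex I, did not pass the threshold. Ndufv1, which binds the flavin that takes electrons from NADH, had 6811 reads in KO and 7005 in Het (ratio 0.903, 0.874 to 0.934). Ndufs1, the largest iron-sulfur subunit, had 3635 reads in KO and 3960 in Het (ratio 0.853, 0.815 to 0.892). The genes above 0 were Ndufb2 at 1.03 (0.974 to 1.10), Ndufs6 at 1.07 (1.02 to 1.11) and Ndufab1 at 1.21 (1.12 to 1.30). Ndufab1, which had 1555 reads in KO and 1196 in Het, encodes the mitochondrial acyl carrier protein, a complex I subunit that also serves fatty acid synthesis in the organelle.

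Complex II, the only complex with no mitochondrially encoded subunit, was below 0 for all 4 of its genes, with a median of -0.25 and a summed ratio of 0.842 (0.825 to 0.859). The flavoprotein gene Sdha had 6249 reads in KO and 6802 in Het, a ratio of 0.854 (0.825 to 0.884). Sdhb, the iron-sulfur subunit, had 5312 reads in KO and 5942 in Het, a ratio of 0.831 (0.8003 to 0.862). The 2 membrane anchors were unequal. Sdhd (chromosome 9, 50404451 to 50411922) had 3570 reads in KO and 4319 in Het, a ratio of 0.768 (0.735 to 0.803), and was the 1 gene of the complex past the threshold. Sdhc had 3324 reads in KO and 3301 in Het, a ratio of 0.936 (0.891 to 0.982).

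Promoters of these genes are known targets of NRF1, a transcription factor of mitochondrial genes whose consensus was searched on both strands as the letters GCGC, any base, T and GCGC again, from 250 bases before to 50 after each RefSeq start. A promoter window was found for 69 of the 86 members. The letters occurred in 17 of these 69 genes, in 24.3% of their windows against 4.60% of all 32851 windows and 6.38% of those of protein-coding genes. The 17 genes had a median log2 ratio of -0.18, with 13 below 0, and the 51 tested members without a match had -0.21, with 44 below 0. Sdha and Sdhd are shown because they hold 3 matches and 1 match in the 150 bases before the start (RefSeq, GRCm38.p6, minus strand, chr13:74350241-74350390 and chr9:50603850-50603999), with the matching letters in capitals.
Sdha: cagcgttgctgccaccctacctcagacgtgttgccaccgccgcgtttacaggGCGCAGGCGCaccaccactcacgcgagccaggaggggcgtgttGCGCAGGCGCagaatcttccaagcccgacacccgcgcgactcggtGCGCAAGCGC
Sdhd: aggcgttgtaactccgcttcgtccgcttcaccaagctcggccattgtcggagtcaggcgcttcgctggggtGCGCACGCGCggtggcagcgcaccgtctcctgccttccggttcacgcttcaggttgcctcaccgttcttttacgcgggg
Letters of other factors linked to these genes, on either strand, were also more frequent in member windows. For GABP, an ETS factor (CCGGAAG), the share was 23.0% against 8.86% of all windows and 11.6% of protein-coding ones. All 17 genes with these letters were below 0, with a median of -0.18. Of the 51 tested members without them 40 were below 0, and their median was -0.21. YY1 letters (AAGATGGC) were in 13.5% against 2.75% of all and 3.05% of protein-coding windows, with 7 of the 10 genes in complex I, and the core site of the estrogen-related receptors (AAGGTCA) in 10.8% against 4.72% and 4.08%. A match describes the letters of the window and no binding was measured.

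Complex III was split, with 4 genes above 0 and 4 below and a summed ratio of 0.912 (0.901 to 0.923). Its median of -0.12 turned above 0 when a trend with GC content and transcript length was removed. Both nuclear electron carriers of the complex were above 0. Cyc1, cytochrome c1, had 4028 reads in KO and 3489 in Het, a ratio of 1.07 (1.02 to 1.12). Uqcrfs1, the Rieske iron-sulfur protein, had 2924 reads in KO and 2251 in Het, a ratio of 1.21 (1.14 to 1.28). Neither passed the 25% threshold.

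The 2 core proteins of complex III went opposite ways. Uqcrc1 had 4137 reads in KO and 3329 in Het, a ratio of 1.15 (1.10 to 1.21). Its partner Uqcrc2 had 4727 reads in KO and 5732 in Het, a ratio of 0.766 (0.737 to 0.796), though a model on the other strand overlaps it, with 241 reads in KO and 249 in Het. The small subunit Uqcrb, which contacts ubiquinone, was the other gene past the threshold, at 0.735 (0.672 to 0.804) with 877 reads in KO and 1108 in Het. Uqcrb is also overlapped by a model on the other strand, with 85 reads in KO and 116 in Het. Uqcr (now Uqcr11) and the hinge protein gene Uqcrh were at 0.841 (0.820 to 0.862) and 0.842 (0.821 to 0.864), short of the threshold, while Uqcrq was level at 1.003 (0.974 to 1.03). Without the members that another model of the table overlaps, the median of complex III was 0.05, so its sign rests on which genes are included.

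Cycs, the mobile carrier cytochrome c, was lower in KO. It had 1678 reads in KO and 2054 in Het, a ratio of 0.759 (0.711 to 0.810). Cycs and several other members are known to have processed pseudogenes, and it is not known how reads shared with such copies were counted.

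Complex IV contained both the lowest and the highest genes of the chain. Of its 15 tested genes, 12 were below 0 with a median of -0.20, and the summed ratio was 0.869 (0.860 to 0.878). By the 25% threshold 4 were lower, 26.7% against 10.7% of all genes tested, and 2 higher, 13.3% against 12.4%. The lowest was Cox8b (chromosome 7, 148084841 to 148086322), a heart and skeletal muscle isoform in mouse, with 716 reads in KO and 1008 in Het, a ratio of 0.660 (0.599 to 0.727). Cox6c followed with 2992 reads in KO and 3998 in Het, a ratio of 0.695 (0.663 to 0.729). Cox6a2 (chromosome 7, 135348949 to 135349880), the muscle isoform of subunit VIa, had 3770 reads in KO and 4893 in Het, a ratio of 0.716 (0.686 to 0.747). Itgad overlaps it on the other strand, with 16 reads in KO and 9 in Het. X-linked Cox7b was the fourth, at 0.741 (0.719 to 0.763).

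Cox5a (chromosome 9, 57369039 to 57380233) stood apart from the other subunits of complex IV. This small matrix-facing subunit had 6064 reads in KO and 3850 in Het, or 417 and 285 CPM, a ratio of 1.46 (1.41 to 1.52). Cox4i1, its neighbour in the assembled enzyme, had 7921 reads in KO and 8296 in Het, a ratio of 0.887 (0.860 to 0.915). Only Cox6b2, a testis isoform at a low level here, was higher than Cox5a on the log2 scale (0.61 against 0.55), with 195 reads in KO and 114 in Het and a ratio of 1.59 (1.26 to 2.02). Ndufa4, first listed under complex I and now counted with complex IV, had 8590 reads in KO and 9632 in Het, a ratio of 0.829 (0.805 to 0.853), although its log2 ratio was 0.08 with the GC and length trend removed.

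The promoters of Cox5a, the second highest gene of complex IV by log2 ratio, and Cox8b, the lowest, are shown because they differ in base composition and neither holds the NRF1 letters in the 150 bases before the start. The Cox5a stretch (plus strand, chr9:57521082-57521231) is 74.0% GC and the Cox8b stretch (minus strand, chr7:140900447-140900596) 55.3% GC (RefSeq, GRCm38.p6).
Cox5a: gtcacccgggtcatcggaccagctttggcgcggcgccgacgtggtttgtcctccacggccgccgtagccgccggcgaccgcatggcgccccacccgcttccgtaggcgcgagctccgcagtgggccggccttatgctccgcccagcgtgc
Cox8b: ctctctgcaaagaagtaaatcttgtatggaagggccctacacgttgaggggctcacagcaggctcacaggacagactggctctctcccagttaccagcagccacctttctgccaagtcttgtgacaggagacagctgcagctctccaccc
No histone mark or binding was measured in these data, and the sequences are given as context only.

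Isoform pairs allow a comparison within a library that does not depend on scaling, the share of a pair's reads that come from one partner. The trend with GC content and transcript length described further on was not removed from these shares. Partners can differ in GC content, as do the transcripts of Cox6a2 at 52.8% and Cox6a1 at 58.8%. Cox6a2 made up 31.8% (exact binomial interval 30.9 to 32.6) of Cox6a reads in KO and 37.1% (36.2 to 37.9) in Het, a difference of -5.29 percentage points (Newcombe interval -6.46 to -4.11). Cox8b made up 9.74% (9.07 to 10.4) of Cox8b and Cox8a reads in KO and 13.4% (12.6 to 14.1) in Het, a difference of -3.61 points (-4.63 to -2.58), or -4.90 points when reads were divided by transcript length. For the third muscle isoform, Cox7a1, the interval of the difference included 0. Its share of Cox7a1 and Cox7a2 reads was 32.7% (31.8 to 33.6) in KO and 33.7% (32.9 to 34.6) in Het, a difference of -1.04 points (-2.24 to 0.17). The ubiquitous partners Cox6a1 (0.905, 0.878 to 0.933), Cox8a (0.942, 0.910 to 0.975) and Cox7a2 (0.913, 0.884 to 0.942) each had ratios below 1 without passing the threshold. However, the log2 ratio of Cox8a was above 0 under total-count scaling and that of Cox7a2 with the GC and length trend removed.

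**Figure D2:**
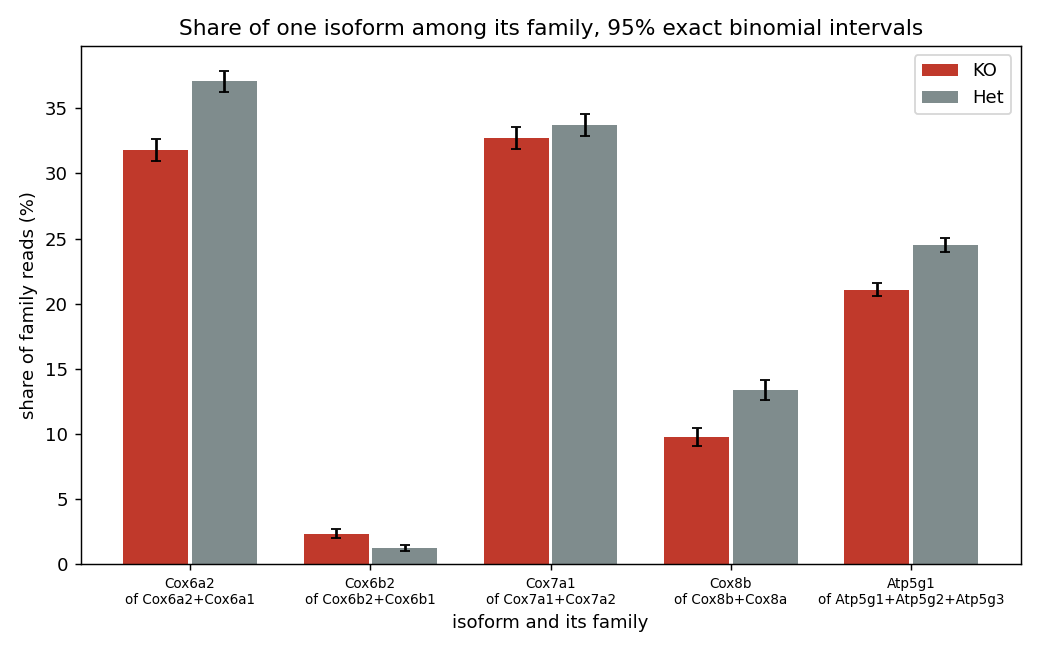
Share of one isoform in the reads of its family (percent, vertical axis) in KO (red, left) and Het (grey, right), with 95% exact binomial intervals of counting error. The shares of Cox6a2, Cox8b and Atp5g1 were smaller in KO than in Het, that of Cox6b2 was larger, and the intervals of Cox7a1 overlap.

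Isoforms of other tissues stayed rare in both libraries. Cox6b2 took 2.35% (2.03 to 2.69) of Cox6b1 and Cox6b2 reads in KO and 1.26% (1.04 to 1.51) in Het, a difference of 1.08 points (0.689 to 1.49). Cox4i2, an isoform known from lung and induced by low oxygen, had 39 reads in KO and 29 in Het, which is 0.490% (0.349 to 0.669) and 0.348% (0.233 to 0.4999) of Cox4i reads. The interval of its ratio ran from 0.753 to 2.10, so a difference was not detectable at this depth. The testis isoform Cox7b2 had 3 reads in KO and 2 in Het (ratio 1.39, 0.160 to 16.7), and Cox8c had 0 reads in both, which allows up to 3 counts in each library. Ndufa4l2, a hypoxia-inducible relative of Ndufa4, had 62 reads in KO and 56 in Het (ratio 1.03, 0.705 to 1.504), and the overlapping Shmt2 on the other strand had 897 and 707.

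Complex V differed by part of the enzyme. Over its 15 genes the median was -0.21, 11 were below 0 and the summed ratio was 0.914 (0.907 to 0.921), with 3 genes past the threshold as lower and 0 as higher. The 4 genes of the peripheral stalk, which holds the catalytic head in place, were all below 0 with a median of -0.31, and 1 passed the threshold. The 3 small membrane subunits within the name pattern had a median of -0.25, with 1 past the threshold as lower, 33.3% against 10.7%. Their median was 0.04 once the trend with GC content and length described further on was removed. Across the 3 genes of the c ring, the rotor in the membrane, the median was 0.05. The 5 genes of the F1 head had a median of -0.14, or 0.05 with that trend removed.

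Within the F1 head the 2 genes of the catalytic ring did not pass the threshold. Atp5b, the beta subunit and the member with the most reads, had 25053 reads in KO and 22862 in Het, a ratio of 1.02 (1.0001 to 1.04), and Atp5a1, the alpha subunit, had 19980 in KO and 20863 in Het, a ratio of 0.890 (0.873 to 0.907). The subunits of the central stalk went apart. Atp5c1, the gamma subunit (chromosome 2, 9977661 to 10002071), had 3793 reads in KO and 4796 in Het, a ratio of 0.735 (0.704 to 0.767). Atp5d, the delta subunit, had 5860 reads in KO and 4410 in Het, a ratio of 1.23 (1.19 to 1.28), or 0.30 on the log2 scale, just short of the threshold. Atp5e, the epsilon subunit, was at 0.907 (0.880 to 0.935).

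In the peripheral stalk Atp5h, subunit d, was past the threshold with 1989 reads in KO and 2454 in Het, a ratio of 0.753 (0.710 to 0.799). The other stalk genes were Atp5j at 0.807 (0.784 to 0.830), Atp5o, the subunit that ties the stalk to the head, at 0.808 (0.775 to 0.843), and Atp5f1 at 0.823 (0.794 to 0.854). Gabpa, the gene of a GABP subunit, overlaps Atp5j on the other strand, with 2080 reads in KO and 2044 in Het. Atp5h and Atp5c1, the lowest genes of the stalk and the head, each have 1 match to the NRF1 letters in the 150 bases before the start (RefSeq, GRCm38.p6, minus strand, chr11:115419920-115420069 and chr2:10080433-10080582), shown in capitals.
Atp5h: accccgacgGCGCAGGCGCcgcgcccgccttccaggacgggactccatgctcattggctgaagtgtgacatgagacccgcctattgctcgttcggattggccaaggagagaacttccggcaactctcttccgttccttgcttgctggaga
Atp5c1: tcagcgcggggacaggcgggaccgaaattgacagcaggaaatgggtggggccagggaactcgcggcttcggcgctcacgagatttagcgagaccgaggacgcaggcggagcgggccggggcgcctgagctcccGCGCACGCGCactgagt
Atp5g2 and Atp5g3, which were above 0, also have a match in their windows, before the start in Atp5g2 and after it in Atp5g3, so the letters occur in genes on both sides.

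The lowest gene of complex V was Atp5j2, subunit f, in the membrane part. It had 5137 reads in KO and 6963 in Het, a ratio of 0.686 (0.661 to 0.711). A model on the same strand overlaps Atp5j2, with 2317 reads in KO and 3213 in Het, and both models may count the same reads. The c ring is built from 1 mature protein made from Atp5g1, Atp5g2 and Atp5g3, which differ in their import sequences. Atp5g3 supplied most of its reads, with 19424 in KO and 17130 in Het (ratio 1.05, 1.03 to 1.08), Atp5g2 had 1362 in KO and 1220 in Het (1.04, 0.960 to 1.12), and Atp5g1 had 5549 in KO and 5949 in Het (0.867, 0.835 to 0.899). The Atp5g1 share of the 3 genes was 21.1% (20.6 to 21.6) in KO and 24.5% (23.9 to 25.03) in Het, a difference of -3.41 points (-4.14 to -2.68). Divided by transcript length the difference was -0.80 points, with a long annotated Atp5g1 transcript of 4715 bases.

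**Figure D3:**
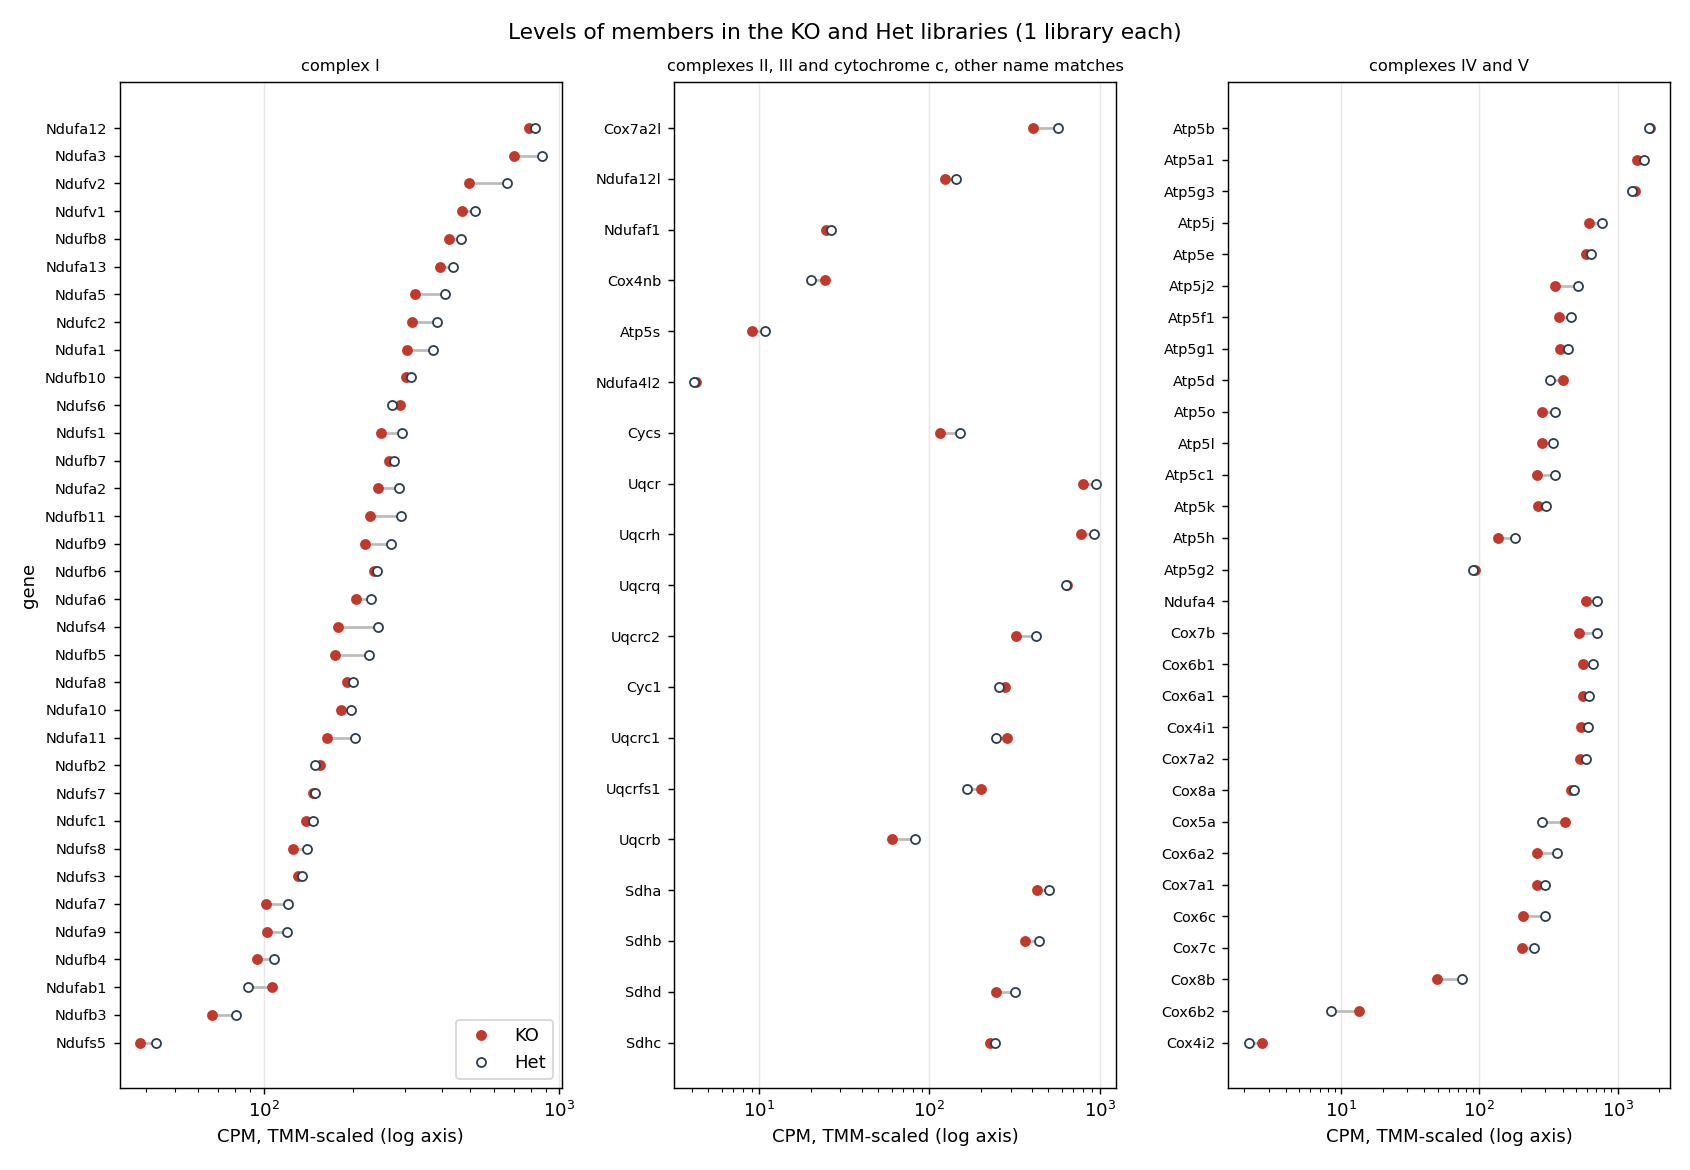
Levels of members in CPM after TMM scaling (horizontal log axis) in KO (filled red) and Het (open) libraries, grouped by complex and ordered by mean level. Open circles lie to the right of filled ones for most genes, with Cox5a, Atp5d, Uqcrfs1, Uqcrc1 and Ndufab1 among the genes where the filled circle lies to the right.

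Levels per kilobase of transcript set the members in order. The length was that of 1 transcript per gene, chosen by RefSeq match, principal label and then greatest length, so the order depends on this choice. With the shortest such transcript Atp5g1 had 640 CPM per kb in KO, against 80.8 with the longest. Atp5g3 was highest in KO at 1845 CPM per kb, against 1751 in Het. Uqcr had 1800 CPM per kb in KO and 2141 in Het, Uqcrh 1418 and 1684, Atp5e 1389 and 1531, and Ndufa3 1363 and 1690, so in Het the first place was held by Uqcr. Catalytic subunits were lower on this scale, with Atp5b at 898 CPM per kb in KO and 882 in Het, Ndufv1 at 282 and 312, and Sdha at 148 and 173. Cytochrome c, Cycs, had 36.9 CPM per kb in KO and 48.6 in Het, with a transcript of 3123 bases. Among tissue isoforms, Cox7a1 had 659 CPM per kb in KO and 757 in Het, Cox6a2 381 and 532, and Cox8b 137 and 207.

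Of the 6 genes that share only the name pattern, 1 was lower by the threshold, 16.7% against 10.7% of all genes tested, and 0 higher. Cox7a2l, which helps join complexes III and IV into supercomplexes, had 5906 reads in KO and 7731 in Het, a ratio of 0.710 (0.686 to 0.734). The complex I assembly factors Ndufaf1 and Ndufa12l (now Ndufaf2) were at 0.937 (0.807 to 1.09) and 0.863 (0.809 to 0.921). Atp5s had 131 reads in KO and 146 in Het, a ratio of 0.834 (0.653 to 1.06). Cox4nb (now Emc8), which belongs to a membrane insertion complex and only neighbours Cox4i1, had a ratio of 1.21 (1.03 to 1.42), and another model on its strand overlaps it. Of the subunit genes that the name pattern misses, 1500032D16Rik, now Ndufv3, was lower at 0.739 (0.716 to 0.762). Another, 1110020P15Rik, now Uqcr10, was at 0.849 (0.824 to 0.875), short of the threshold. Proteins of ATP synthase that the pattern also misses are given further on.

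The log2 ratio of members followed the GC content of their transcripts. Across the 84 members, which are not independent replicates and share both libraries, Spearman's rho was 0.41 and Pearson's r 0.35, and across 13239 tested genes rho was 0.41 and r 0.37. Split into 3 equal groups of 28 by GC content, members had medians of -0.27 in the lowest group, -0.18 in the middle and -0.14 in the highest. Genes of like level in the same 3 ranges had medians of -0.12, 0.005 and 0.09. In each GC range the median of members was below that of such genes. Tested members had a median transcript length of 787 bases and a median GC content of 51.7%. Over tested genes with a value these were 3084 bases and 50.5%. The parts of GC content and of length in the trend removed next were not separated. After removal of a quadratic trend fitted to GC content and transcript length, the median was -0.04 for members and -0.03 for genes of like level. Of the members, 49 of 84 were then below 0, against 51.1% of all genes with a GC value.

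With the trend removed, 4 members were lower and 4 higher by the 25% threshold, while 6.33% of all genes were lower and 9.68% higher. The 4 lower were Cox8b (log2 ratio -0.40), Atp5j2 (-0.38), Cox7a2l (-0.35) and Cox6a2 (-0.33). The genes of complexes I, II and III and Cycs that were lower under TMM scaling no longer passed. The 4 higher were Cox5a (0.79), Cox6b2 (0.73), Uqcrfs1 (0.41) and Ndufab1 (0.36). Of the 5 complexes, complex II was lowest, at a median of -0.21 with 4 of 4 below 0, followed by complex V at -0.15, where the peripheral stalk was at -0.20. Medians of complexes I and IV were near 0, at -0.05 and -0.02, and that of complex III was 0.04. With 1 library each, the GC and length trend and the genotype cannot be told apart.

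**Figure D4:**
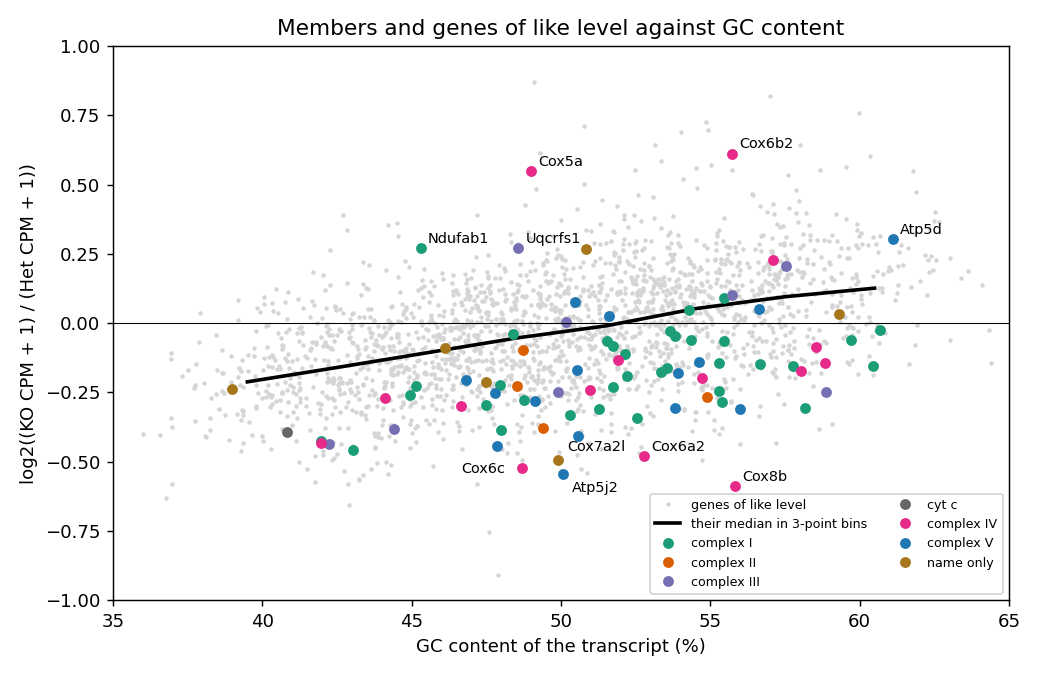
Log2 ratio of KO over Het (vertical axis) against GC content of the transcript in percent (horizontal axis) for the members, coloured by complex, and for 2227 genes of like level in grey, 9 of which lie outside the axes, with the grey genes' median as a black line. The line rises with GC content, most members lie under it, and Cox5a, Cox6b2, Ndufab1 and Uqcrfs1 lie above it.

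Genes around the chain gave a mixed picture. The 13 mitochondrially encoded subunits, which pair with the nuclear ones, were all below 0 with a median of -0.39. By the threshold 8 were lower, 61.5% against 10.7% of all genes tested, and 0 higher, against 12.4%. Together the 13 took 9.86% of reads in KO and 11.9% in Het. By complex, the ratio of summed reads was 0.811 (0.808 to 0.814) for complex I, 0.859 (0.852 to 0.866) for mt-Cytb of complex III, 0.732 (0.729 to 0.735) for complex IV and 0.726 (0.721 to 0.730) for complex V. The lowest were mt-Co2 at 0.699 (0.695 to 0.704), mt-Atp8 at 0.706 (0.699 to 0.713) and mt-Nd3 at 0.711 (0.697 to 0.726). With the GC and length trend removed, the list had a median of 0.10, with 4 of 13 below 0 and 1 past the threshold as higher. That trend was fitted to nuclear genes only. The median GC content of these 13 transcripts was 37.1%, against 50.5% over all tested genes with a value, so it may not hold for them.

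ATP synthase factors outside the name pattern were below 0 for all 3 genes. Of these, 2 passed the threshold as lower, 66.7% against 10.7% of all genes tested. 2010107E04Rik, a small protein of the membrane part, had 5726 reads in KO and 8402 in Het, a ratio of 0.633 (0.612 to 0.655). Usmg5, which is needed for paired synthase complexes, had 2682 reads in KO and 3642 in Het, a ratio of 0.684 (0.651 to 0.720). Atpif1, the inhibitor of the enzyme, was at 0.813 (0.779 to 0.848) and did not pass. With the trend removed the list median was -0.11, against -0.54 without, and 0 genes passed.

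The 7 genes listed as complex I assembly factors, within and outside the name pattern, were all below 0 with a median of -0.21. By the threshold 3 were lower, 42.9% against 10.7% of all genes tested. These were 1110007M04Rik at 0.691 (0.623 to 0.765), 2310003L22Rik at 0.735 (0.640 to 0.844) and 4733401H18Rik at 0.776 (0.664 to 0.906). With the trend removed the median of the 7 was 0.05, with 3 below 0 and 2 lower. These 7 are not all assembly factors of complex I, and others were placed in the next list. Of those, Ecsit and Nubpl were above 1, at 1.11 (0.960 to 1.28) and 1.12 (0.854 to 1.47). Acad9, Tmem126b and Foxred1 were below 1, at 0.875 (0.768 to 0.997), 0.853 (0.717 to 1.01) and 0.916 (0.828 to 1.01).

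Assembly factors outside this list had a median of -0.06 over 29 genes, 0.03 under total-count scaling and 0.09 with the trend removed. Under TMM scaling 1 was lower and 2 higher, 3.45% and 6.90% against 10.7% and 12.4% of all genes tested. Uqcc, a complex III assembly factor, was at 0.771 (0.687 to 0.866). Cox18, which inserts mt-Co2, was at 1.31 (1.03 to 1.65), and Atpaf1, which assembles the F1 head, at 1.28 (1.13 to 1.44). Regulators of mitochondrial biogenesis had a median of 0.00 over 19 genes. By the threshold 2 of them were lower and 2 higher, which is 10.5% each way, near the 10.7% and 12.4% of all genes. The coactivator gene Ppargc1a had 815 reads in KO and 953 in Het, a ratio of 0.795 (0.723 to 0.873), and Tfb2m, a mitochondrial transcription factor, was at 0.722 (0.591 to 0.880). The receptor genes Esrrb and Esrrg were at 1.39 (1.09 to 1.78) and 1.31 (1.21 to 1.43). Nrf1 itself had 320 reads in KO and 293 in Het, a ratio of 1.01 (0.863 to 1.19).

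Genes that feed the chain had medians closer to 0 than its subunits under TMM scaling, but not with the trend removed. The medians were then -0.04 for the tricarboxylic acid cycle, -0.09 for carriers and channels and 0.07 for other electron entry, against -0.04 for the members. The 13 genes of the tricarboxylic acid cycle other than complex II had a median of -0.10. By the threshold 1 was lower, 7.69% against 10.7% of all genes tested, and 0 higher, against 12.4%. The lower gene was Idh3a of isocitrate dehydrogenase, at 0.775 (0.742 to 0.810). Carriers and channels of the mitochondrial membranes had a median of -0.14 over 14 genes. Of these, 1 was lower, 7.14% against the same 10.7%, and 0 higher. It was the outer-membrane channel gene Vdac3, at 0.751 (0.691 to 0.816). The 6 genes of other electron entry routes, such as electron transfer flavoprotein, had a median of -0.07. This median was above 0 under total-count scaling and with the trend removed. Of the 6 genes 0 were past the threshold, against 10.7% of all genes tested as lower and 12.4% as higher.

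**Figure D5:**
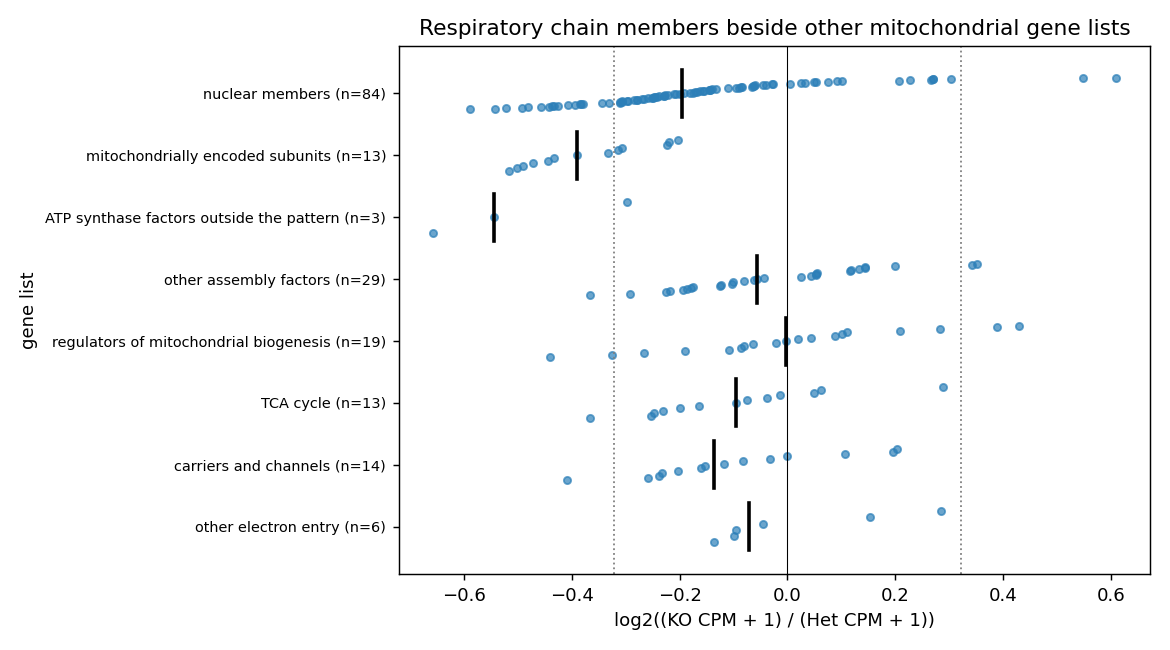
Log2 ratio of KO over Het (horizontal axis) for each tested gene of the nuclear members and of 7 related lists (rows), with black bars for medians and dotted lines at the 25% threshold. The mitochondrially encoded subunits and the 3 ATP synthase factors lie furthest below 0, and regulators and assembly factors are centred near 0.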

How the data were processed

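Read counts per gene model and CPM of each library were deposited by the authors, per the file headers. The deposited CPM relate counts to 1000000 reads of the same library, without regard to transcript length. The authors' fold, a ratio of Het over KO, and the deposited p-value, whose test is not named, were not used here. Alignment, counting, strand use and genome build, not given in the sources used here, could not be checked. Coordinates of genes follow the files, counted from 1. Totals of 14122579 reads in KO and 13944617 in Het set the counting precision. The tables of single libraries hold the same reads as the table of both.

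Rows of 1 symbol were summed (185 genes had more than 1 row). TMM scaling in edgeR 4.0.16 under R 4.3.3 gave factors of 1.03 for KO and 0.970 for Het. Genes with at least 1 CPM in the higher library were tested for size with a pseudocount of 1 CPM and a threshold of 25%. Ratios of scaled counts have exact conditional Poisson intervals, shares exact binomial intervals, and share differences Newcombe intervals (statsmodels 0.14.6, scipy 1.17.1). Recovery of known folds after TMM scaling was tested on simulated counts, which held no GC or length trend and no spread between animals. Intervals, trend removal and shares were not tested in this way. GC content and length came from GENCODE M21 transcripts matched to RefSeq. A quadratic trend on both was fitted to 10848 nuclear genes, and 81.8% of tested genes had a value. Promoter windows came from RefSeq (GRCm38.p6). Of 245 list entries, 221 matched a symbol, 16 a synonym, and 8 had no match.

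The members and lists were chosen with earlier results of these data known. Named genes are Ezh2, the isoform pairs, key catalytic subunits, the 3 lowest and 3 highest members of each complex with at least 10 CPM on average, the members that share only the name pattern, and up to 3 genes past the threshold in each direction of each other list. A gene within this rule is not reported here. Others were named after their values were seen. Alternatives were other scalings (including the median of ratios from DESeq2 1.42.0), pseudocounts, filters, folds, the removed trend, length-scaled shares and, chosen after seeing the data, the shortest transcript and members without an overlapping model.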

Additional observations from a re-analysis of the deposited data

How the results depend on the processing

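No paired analysis was possible because each genotype has 1 library. The other alternatives left medians and counts of all members within the counting error, or within 1.5 times for counts, except as follows. Under total-count scaling the median log2 ratios were -0.11 for all members, -0.075 for complex I, -0.16 for complex II, -0.034 for complex III, -0.11 for complex IV and -0.12 for complex V, with 10 members lower and 6 higher, and the electron entry list was at 0.0041. Summed ratios were then 0.941, 0.933, 0.895, 0.969, 0.923 and 0.971 in the same order. Upper-quartile scaling gave summed ratios of 0.897 for all members, 0.889 for complex I, 0.924 for III, 0.880 for IV and 0.926 for V, and median-of-ratios scaling 0.894 for all, 0.886 for I and 0.923 for V. With the GC and length trend removed the medians were -0.037 for all members, -0.047 for complex I, 0.038 for III and -0.024 for IV, with 4 lower and 4 higher. The lists of electron entry and of mitochondrially encoded subunits were then at 0.069 and 0.098, mt-Atp8 at 0.26 and mt-Nd3 at 0.16. With the shortest transcript of each gene in that trend, the values were -0.046 for all members, -0.054 for complex I, 0.031 for III, -0.032 for IV and -0.12 for V, with 4 lower and 4 higher. Without members that another model overlaps, complex III was at 0.053. A fold of 1.5 left 1 member lower and 1 higher, and a fold of 2 left 0 and 0. Divided by transcript length, the isoform differences were -4.90 points for Cox8b and -0.80 points for Atp5g1. Among 63 named genes the sign differed for 9 with the trend removed (Atp5s, Cox7a1, Cox7a2, Ndufa12l, Ndufa4, Ndufa4l2, Ndufaf1, mt-Atp8 and mt-Nd3), 2 under total-count scaling and 0 under the other scalings, pseudocounts and filters. The cause of these dependences was not tested. Counting error is small beside them (median half-width 0.06 on the log2 scale), and the spread between animals or preparations was not measured.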
